A study of Mus musculus with 6 samples.

Results

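The weaker of 2 DOT1L populations was compared with its reference inside each of 2 mouse leukemias. The comparison used 4 of the 6 libraries of the series, which were chosen by their labels: DOT1L Low and NT of leukemia K3117, and DOT1L Low and NT of leukemia K3174. Of 49585 gene IDs in the count table, 15812 had enough counts to be tested, and all of them are described here, with values printed for the genes and gene groups on which the comparison turned.

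All libraries came from acute myeloid leukemia cells of mice that carried the fusion gene KMT2A-MLLT3, so the reference cells bore the fusion too. Marrow of moribund animals had been transduced with DOT1L, cells were sorted into populations with low and with high expression, and RNA was taken 3 days after the sort from cultures that held interleukin 3, interleukin 6 and stem cell factor. The groups are called NT, Low and High below, after their labels. What NT stands for, and whether its cells had been transduced or sorted, is not given in the labels, so differences from NT can hold differences of handling, which cannot be told apart from those of DOT1L. The promoter of the introduced DOT1L, its species, and the age and strain of the mice are likewise not given there. Each group held 1 library of each leukemia, and whether the K numbers stand for separate mice is not stated, so the p-values measure the spread between these samples only.

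DOT1L adds methyl groups to lysine 79 of histone H3 in the body of transcribed genes. KMT2A fusions with partners such as MLLT3 bring DOT1L and elongation factors to a set of genes that includes the late Hoxa cluster and Meis1, and leukemias of this type are known to depend on the enzyme. Such cells resemble granulocyte and macrophage progenitors that are held at an immature stage. Their normal counterparts make the proteins of primary granules first, those of secondary and tertiary granules later, and S100 proteins in quantity when they mature into neutrophils.

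Dot1l itself (chromosome 10, 80755206 to 80795461, plus strand, GRCm38) was counted at 128 and 158 CPM (counts scaled to the size of the library) in the NT libraries of K3117 and K3174 and at 184 and 152 CPM in their Low libraries. Values are given in this order, K3117 first, throughout. The K3117 Low library was thus higher than its NT library, the K3174 Low library was not, and the groups overlapped. The fitted difference of Low minus NT was 0.23 ± 0.14 on the log2 scale (SE here and below), with a 95% interval of the fold of 0.944 to 1.46 and an adjusted p of 0.62. The High libraries held 149.8 and 136 CPM. Dot1l counts therefore do not order the libraries as their labels do, and since reads of an introduced DOT1L need not align to the mouse gene, they neither bear out nor contradict the labels. Directions below are those of the libraries as labelled.

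Total counts were between 22908445 and 33265848 per library. The median SE of a log2 difference was 0.12 for genes above 100 CPM and 0.56 for genes under 1 CPM. Mitochondrially encoded transcripts took 1.45% and 1.17% of counts in NT and 1.41% and 1.60% in Low, which means that their share rose in K3174 and not in K3117. Every pair of libraries differed by more than sampling noise. The cells were checked against their label: Ptprc, the pan-leukocyte antigen, was at 342 and 247 CPM in NT and 271 and 275 CPM in Low, and Hoxa9, an immediate target of the fusion, at 271 and 272 CPM and 215 and 202 CPM. Cd3e and Cd8a of T cells, Ncr1 of NK cells, Ms4a1 and Pax5 of B cells, and Col1a2, Col3a1 and Cxcl12 of stroma had no count in any NT or Low library. Other members of these lists had counts. T and NK cell genes, led by Cd28 and Nkg7, summed to 74.2 and 81.5 CPM in NT and 90.9 and 97.3 CPM in Low. Stromal and endothelial genes, led by Pecam1 and Pdgfrb, summed to 214 and 172 CPM in NT and 234 and 154 CPM in Low. The genes without counts therefore do not show that these cell types were absent. Other cell types are described with their groups below.

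Low differed from NT at 528 of the 15812 genes in the fit that kept the leukemia as a block (edgeR quasi-likelihood test, Benjamini-Hochberg adjusted p at or under 0.05). Higher in Low were 324 genes, 2.05% of those tested, and lower were 204, or 1.29%. Without the block, no gene passed: the smallest adjusted p was 0.30, and 950 genes had an unadjusted p under 0.05, against 2097 with the block. The leukemia was kept as a block since each K number names 1 library of every group. The 2 leukemias differed from each other at many of the genes described below, and the NT and Low libraries of 1 leukemia deviated together from their group means (correlation across genes 0.57).

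Most genes moved little. The median difference of Low minus NT over all genes tested was -0.01 (log2), its quartiles were -0.17 and 0.15, and 84.8% of genes were within 1.5-fold. Of the genes that passed, 150 were at least 2-fold higher and 134 at least 2-fold lower, and the smallest difference that passed was 0.48. The median among the higher genes was 0.95 and among the lower genes -1.33. Genes at 5 to 20 CPM passed most often, 5.82% of 2697, and genes under 1 CPM least often, 0.832% of 3244. All 528 genes had the same sign in K3117 and K3174, as 52.5% of all genes did with the sign of their fit. The NT and Low libraries did not overlap at 268 of the 324 higher and 154 of the 204 lower genes, beside 31.6% of all genes tested. A fit with the leukemia as block favors genes that moved alike in both leukemias. Shared sign and lack of overlap thus follow in large part from passing and are no separate support.

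**Figure D1:**
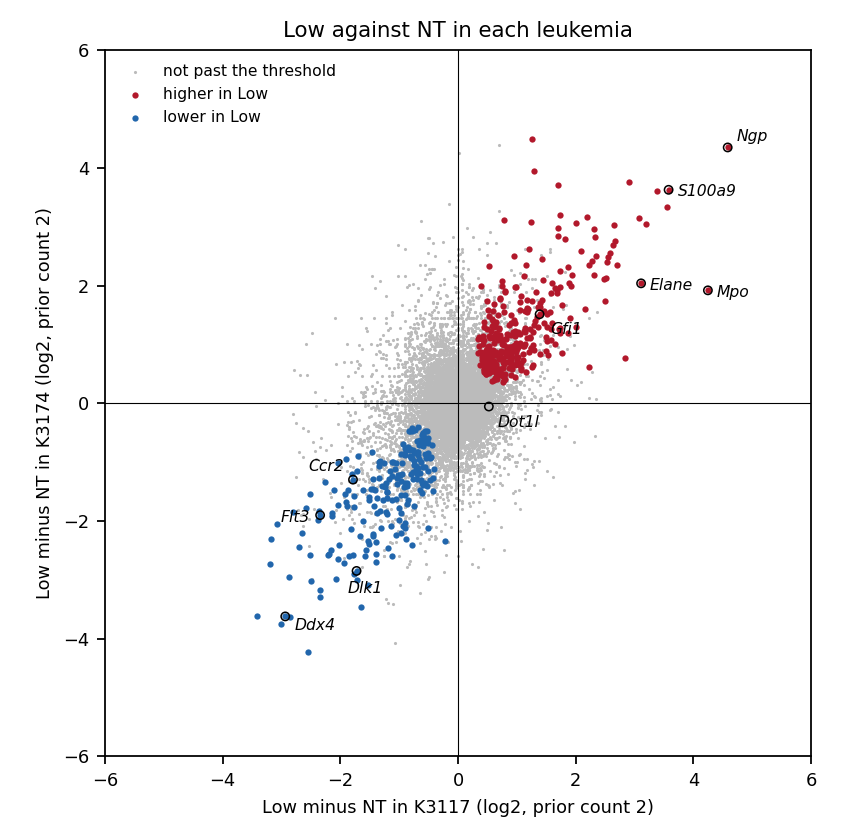
Low minus NT on the log2 scale (log2 CPM with a prior count of 2) in K3117 on the x axis and in K3174 on the y axis, 1 point per gene tested. The 324 genes higher in Low (red) and the 204 lower (blue) lie in the quadrants where both leukemias moved the same way, and Dot1l lies at 0.52 and -0.06.

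How many genes passed depended on single libraries. It was 144 without the K3174 Low library, 355 without the K3117 Low library, 1483 without the K3117 NT library and 885 without the K3174 NT library, and 958 and 951 without the K3117 and K3174 High libraries. Where a group was left with 1 library, that library was assumed to vary like the others. The fits without a High library also estimated a spread shared by nearly all genes, so they are weak checks of any single gene. In all 6 of these fits, 128 of the 528 genes passed, 105 of them higher and 23 lower. Genes named below held in all of them unless the text says otherwise, and none passed without the block. A call lost "without either" library is lost when one or the other of them is left out.

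Genes of neutrophil granules and their regulators were among those that rose most. The gene lists used here and below were chosen with earlier results of these data known. Their counts beside the shares of all genes are therefore descriptions and no separate support. Of the 10 granulocyte transcription factors listed, 3 rose and none fell, with a list median of 0.34 beside -0.01 over all genes. Gfi1, a repressor needed to make neutrophils (chromosome 5, 107716657 to 107726036, minus strand), was at 36.8 and 47.5 CPM in NT and 96.2 and 136 CPM in Low. Both Low libraries stood above both NT libraries, and the difference was 1.45 ± 0.12 (adjusted p = 0.00018). Cebpe, the C/EBP factor of the step to secondary granules (chromosome 14, 54710360 to 54712174, minus strand), was at 10.2 and 34.6 CPM in NT and 57.5 and 116 CPM in Low. Again the groups did not overlap, with a difference of 2.07 ± 0.21 (adjusted p = 0.00038), which is 4.2-fold. Cebpd, another C/EBP factor, went from 22.4 and 26.8 CPM to 38.6 and 42.4 CPM, a difference of 0.72 ± 0.13 (adjusted p = 0.011) that did not pass without either Low library. Cebpa and Spi1, which act at the earlier myeloid progenitor stage, did not pass, with 0.29 ± 0.13 (adjusted p = 0.38) and 0.34 ± 0.12 (adjusted p = 0.18). Without the K3174 NT library, 6 of the 10 factors were higher.

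Many primary granule genes rose as well. Of 12 listed and tested, 8 were higher and none lower, and the list median was 0.83, at 0.82 in K3117 and 0.85 in K3174. Mpo, the myeloperoxidase, was at 30.5 and 526 CPM in NT and 579 and 1989 CPM in Low. The leukemias started far apart, and the K3117 Low library only just exceeded the K3174 NT library. Within a leukemia Mpo rose by 4.24 in K3117 and 1.92 in K3174, and the fitted difference was 2.83 ± 0.50 (adjusted p = 0.01), a call that was lost with DESeq2 alone among the alternatives that kept the block (adjusted p = 0.23). Elane, neutrophil elastase, was at 59.4 and 233 CPM in NT and 514 and 955 CPM in Low, with no overlap and a difference of 2.50 ± 0.29 (adjusted p = 0.00084). Prtn3, proteinase 3, went from 251 and 600.1 CPM to 746 and 1265 CPM and Prss57, a further serine protease of these granules, from 5.35 and 14.8 CPM to 17.2 and 56 CPM. The differences were 1.31 ± 0.18 and 1.81 ± 0.15 (adjusted p = 0.0024 and 0.00018). Cst7, the protease inhibitor cystatin F, rose by 0.85 ± 0.12 (adjusted p = 0.0023), from 37.5 and 46.6 CPM to 65.8 and 86.3 CPM. Fcnb, a ficolin, rested on 3 counts in the K3117 NT library, was at 0.0902 and 3.94 CPM in NT and 0.929 and 32.6 CPM in Low, and had a difference of 3.01 ± 0.25 (adjusted p = 0.00018) although the groups overlapped. Ctsg, the gene of cathepsin G, was at 854 and 1195 CPM and 1342 and 1417 CPM and did not pass (adjusted p = 0.31).

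Secondary and tertiary granule genes had the highest list median, 1.62 (1.33 in K3117 and 1.88 in K3174). Of 20 listed, 19 were tested, 13 were higher and none lower. Between 11 and 15 were higher when any 1 library was left out. Ngp, neutrophilic granule protein (chromosome 9, 110419747 to 110423012, plus strand), was at 1.05 and 15.6 CPM in NT and 26.8 and 319 CPM in Low. Each Low library exceeded its own NT library by about the same factor, 4.58 in K3117 and 4.35 in K3174 on the log2 scale, while K3174 stood far above K3117 under both labels. The fitted difference of 4.33 ± 0.36, 20.1-fold with a 95% interval of 11.5 to 34.9, was the highest among the named genes that passed (adjusted p = 0.00018).

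Lcn2, lipocalin 2, was at 2.59 and 5.78 CPM in NT and 9.29 and 40.4 CPM in Low, and Camp, the cathelicidin, at 0.391 and 6.17 CPM and 5.32 and 62.8 CPM. The differences were 2.39 ± 0.21 and 3.33 ± 0.30 (adjusted p = 0.00018 and 0.00018). Ltf, lactoferrin, was at 0.301 and 2.41 CPM in NT and 0.833 and 38.2 CPM in Low. The rise was larger in K3174, with 1.29 in K3117 and 3.95 in K3174, the groups overlapped, and the fitted difference was 3.50 ± 0.46 (adjusted p = 0.0017). Lrg1, a leucine-rich glycoprotein of neutrophil granules, went from 0.481 and 1.05 CPM to 4.04 and 15 CPM and Itgb2l, an integrin beta chain, from 0.0301 and 1.31 CPM to 0.961 and 16.8 CPM, where the K3117 NT library had 1 count of Itgb2l. Pglyrp1, a peptidoglycan recognition protein, rose 2.83-fold from 17.4 and 37.9 CPM to 44.7 and 118 CPM (adjusted p = 0.00018).

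Other genes of these granules did not pass. Adam8 was lower in both leukemias, 1.84-fold in K3117 and 2.16-fold in K3174. At an unadjusted p under 0.05, 15 of the 19 genes tested were higher and 2 lower. Mmp8 and Mmp9, the collagenase and gelatinase of late granules, had differences of -0.67 ± 0.28 and -0.46 ± 0.41 (adjusted p = 0.31 and 0.81). Chil3 was at 0.571 and 37.6 CPM in NT and 2.05 and 68.9 CPM in Low (adjusted p = 0.34). Slpi, an inhibitor of neutrophil elastase, was at 345 and 536 CPM and 407 and 317 CPM, up in K3117 and down in K3174 (adjusted p = 0.74).

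The promoters of Ngp and Ltf are shown as those of late granule genes that rose and that hold the letters TTGCNCAA. Sites bound by the C/EBP family are related to these letters, and a part of that family in the rise was not tested. The sequences are from RefSeq on GRCm38.p6, 5′ to 3′ on the strand of the gene, cut to bases that no GENCODE exon covers, with every match to TTGCNCAA on either strand in capitals. Ngp is read at chr9:110419558-110419746 on the plus strand and Ltf at chr9:111019042-111019270 on the plus strand.
Ngp: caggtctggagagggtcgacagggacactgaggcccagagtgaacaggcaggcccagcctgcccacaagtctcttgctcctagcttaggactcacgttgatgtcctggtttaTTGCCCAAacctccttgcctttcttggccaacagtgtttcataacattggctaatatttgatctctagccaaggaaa
Ltf: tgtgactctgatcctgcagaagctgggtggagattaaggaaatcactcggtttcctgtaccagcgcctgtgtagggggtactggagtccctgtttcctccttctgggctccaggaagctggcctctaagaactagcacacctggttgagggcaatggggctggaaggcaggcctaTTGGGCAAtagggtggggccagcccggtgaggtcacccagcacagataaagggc
The match lies 138 bases before the RefSeq start in Ngp and 75 bases before it in Ltf. In windows of 250 bases before RefSeq starts, 6 of the 16 secondary and tertiary granule genes that had a window held the letters (Ngp, Ltf, Lcn2, Mmp8, Adam8 and Slpi), as did 1 of 10 primary granule genes and 3.0% of 27025 genes. Of these 6, Mmp8, Adam8 and Slpi did not pass the test. Camp, Lrg1 and Itgb2l were higher in Low and had a window without TTGCNCAA. The looser TTNNGNAA was in 10 of the 16 and in 40.3% of all genes. These letters were picked out of 13 motif spellings after all of them had been searched, so the counts are a description, and a match is not a binding site.

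S100 proteins and stefins, small calcium-binding proteins and protease inhibitors of neutrophils, had 5 higher and none lower of 13 tested, with a median of 0.50. S100a9 was at 2.29 and 33.4 CPM in NT and 28 and 413 CPM in Low, and its partner S100a8 at 2.95 and 42.4 CPM and 27.6 and 350.5 CPM. Within a leukemia the log2 differences of S100a9 were 3.58 in K3117 and 3.63 in K3174, and the K3117 Low library did not reach the K3174 NT level of either gene. The fitted differences were 3.56 ± 0.33 and 3.05 ± 0.34 (adjusted p = 0.00021 and 0.00062). Stfa2 went from 0.0902 and 1.05 CPM, which was 3 counts in the K3117 NT library, to 1.28 and 9.86 CPM (adjusted p = 0.0016), and counts of the near-identical stefin genes Stfa1, Stfa2, Stfa2l1 and Stfa3 are uncertain, since reads may be shared. The number higher was 3 without the K3174 Low library and 3 with DESeq2.

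**Figure D2:**
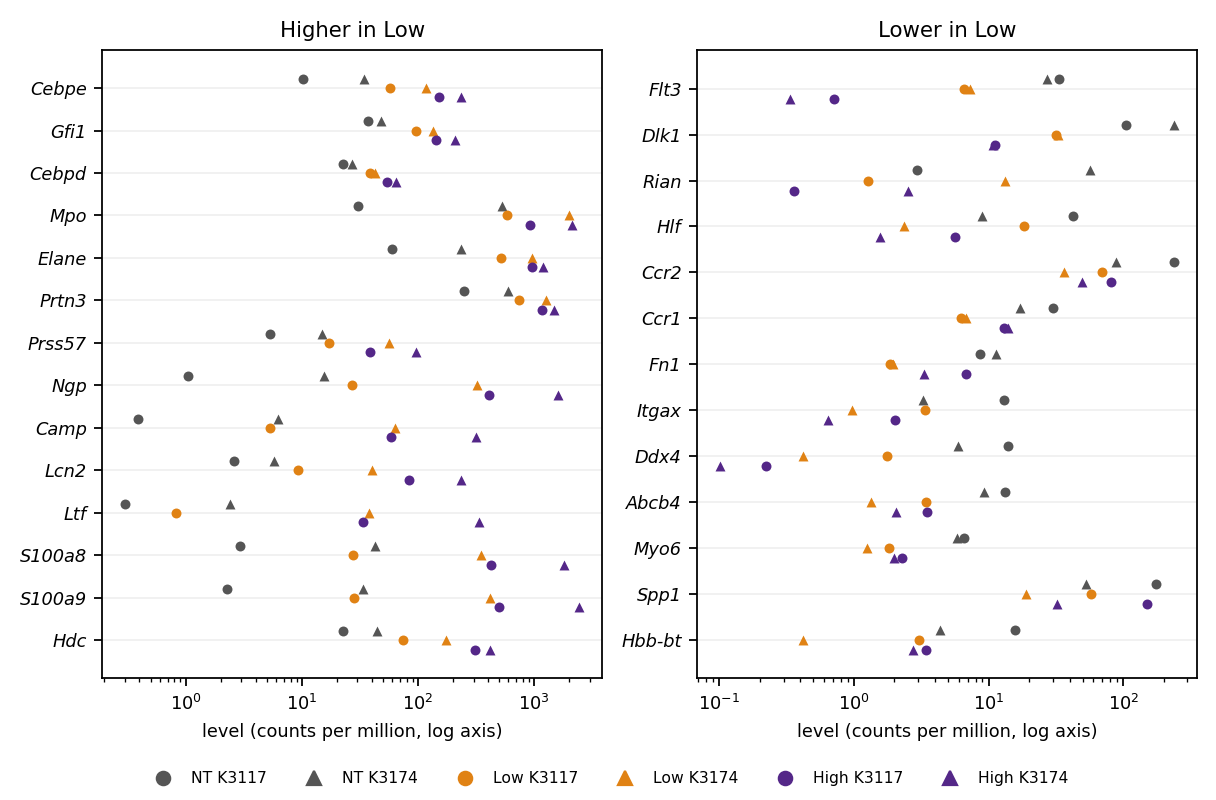
Levels in CPM (log axis) of 14 genes that were higher and 13 that were lower in Low, 1 point per library, with circles for K3117 and triangles for K3174. Ngp runs from 1.05 and 15.6 CPM in NT through 26.8 and 319 in Low to 404 and 1609.5 in High, while Flt3 falls from 33.5 and 27.2 through 6.54 and 7.23 to 0.711 and 0.337.

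Some genes of the oxidase and of cytokine receptors were higher, beside 2.05% of all genes tested. Of 6 oxidase subunits, Ncf4 was higher (84.4 and 100.2 CPM in NT, 122 and 142 CPM in Low, 0.52 ± 0.11, adjusted p = 0.031), and it was lost without either Low library. Cybb, the catalytic subunit, was at 290.1 and 141 CPM and 269.6 and 221 CPM (adjusted p = 0.68). Among 16 cytokine receptors, 3 were higher and none lower. Csf3r, the receptor of granulocyte colony-stimulating factor, went from 18.6 and 26.8 CPM to 31.1 and 56 CPM (0.90 ± 0.15, adjusted p = 0.0068). Kit, the receptor of stem cell factor, went from 109 and 136 CPM to 187 and 219 CPM (0.73 ± 0.11, adjusted p = 0.0045), and Tnfrsf1b, a receptor of tumor necrosis factor, from 67.3 and 52.7 CPM to 105 and 83.5 CPM (0.65 ± 0.12, adjusted p = 0.011). None of the 3 passed without the K3174 Low library, and Tnfrsf1b also did not without that of K3117. Csf1r and Csf2rb, receptors of the macrophage and granulocyte-macrophage factors, did not pass, at 89.6 and 43.7 CPM against 95.1 and 47.9 CPM and 187 and 140.0 CPM against 204 and 149.6 CPM.

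In bulk RNA, more cells of a maturing type and more RNA per cell cannot be told apart, and this holds for each granule gene above. Some markers of eosinophils, which share the granulocyte lineage, moved alongside. The summed level of the 9 eosinophil markers was 12.5 and 92.7 CPM in NT and 58.9 and 151 CPM in Low, with Ccr3 at no more than 1 count in any library. Of 8 tested, Epx, Prg3 and Siglecf were higher, led by Epx, eosinophil peroxidase, at 3.76 and 26.4 CPM and 27.1 and 45 CPM (1.59 ± 0.36, adjusted p = 0.037). With DESeq2, with a minimum of 5 CPM and without the K3117 Low library, Epx did not pass, and without the K3117 Low library 1 eosinophil marker was higher. Prg3 was lost without either Low library, and Siglecf without the NT or the Low library of K3174. The other 5 eosinophil markers tested did not pass, and among them Ear2 was 1.46-fold higher in K3117 and 2.22-fold lower in K3174. NT and Low did not overlap at 1 of the 8 eosinophil markers, beside 31.6% of all genes tested. Mast cell and basophil markers summed to 128 and 209 CPM in NT and 194 and 287 CPM in Low. Hdc, histidine decarboxylase, was the 1 of 10 tested that was higher. It went from 22.4 and 44.1 CPM to 74.2 and 173 CPM (1.86 ± 0.17, adjusted p = 0.0002). Without Hdc, the markers summed to 106 and 165 CPM in NT and 119 and 114 CPM in Low, up in K3117 and down in K3174. The median of Low minus NT over the whole list, Hdc included, was -0.27. The serine protease gene Prss34 was lower, at 0.12 and 2.71 CPM and 0.0641 and 0.57 CPM (adjusted p = 0.042), and was lost with DESeq2, without the K3174 NT library and without either Low library. Cpa3, a mast cell carboxypeptidase, was at 6.74 and 34.3 CPM and 3.68 and 24.5 CPM (adjusted p = 0.055), and Tpsab1 and Mcpt4 had no count in NT or Low. The part of such cells in the granule genes was not tested.

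Several targets of the fusion fell. Flt3, a receptor tyrosine kinase of lymphoid and early myeloid progenitors (chromosome 5, 147330741 to 147400489, minus strand), was at 33.5 and 27.2 CPM in NT and 6.54 and 7.23 CPM in Low. The libraries of each group were close together and far from the other group. The difference was -2.13 ± 0.21, or 4.37-fold lower (adjusted p = 0.00028). It is 1 of 24 listed KMT2A fusion targets, of which 6 were lower and none higher, with a list median of -0.39 (-0.36 in each leukemia). NT and Low did not overlap at 16 of the 24, beside 31.6% of all genes tested.

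The Hoxa genes, homeobox factors that keep progenitors immature, lay in this list. Hoxa5 went from 44.8 and 37.1 CPM to 25.6 and 16.1 CPM (2-fold lower, adjusted p = 0.0043), Hoxa3 from 8.18 and 5.52 CPM to 4.2 and 2.7 CPM (-0.99 ± 0.24, adjusted p = 0.044) and Hoxa6 from 13.6 and 10.4 CPM to 7.88 and 5.46 CPM (-0.85 ± 0.19, adjusted p = 0.034). Hoxa9 itself, at 271 and 272 CPM in NT and 215 and 202 CPM in Low, did not overlap between groups either, but its difference of -0.38 ± 0.11 did not pass (adjusted p = 0.11). Meis1, the cofactor of HOXA9, fell from 91.2 and 86.2 CPM to 60.5 and 60.7 CPM (-0.55 ± 0.12, adjusted p = 0.028). The cofactor Pbx3 and the transcription factor Mef2c had -0.42 ± 0.12 and -0.49 ± 0.13 and did not pass (adjusted p = 0.11 and 0.072). Jmjd1c, a histone demethylase family gene, was lower by a small margin (-0.55 ± 0.13, adjusted p = 0.045). Cdk6, Zeb2, Myb and Myc, also known targets, had differences between -0.01 and 0.29 and none passed.

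Calls in this list depended on single libraries. Lower were 2 of the 24 without the K3117 Low library, 1 without the K3174 Low library, 4 with a minimum of 5 CPM and 10 without the K3117 NT library. Higher were 4 without the K3117 NT library, 1 without the K3174 NT library, 1 without either High library and 1 with DESeq2. Flt3 passed in all of these. Hoxa5 was lost without the K3174 Low library, Meis1 and Hoxa6 without either Low library, and Hoxa3 and Jmjd1c without either Low library or the K3117 NT library. Hoxa3 was also lost with DESeq2. The DOT1L partners and elongation factors had 1 of 23 higher and none lower, with a median of 0.05. That 1 was Aff1, a scaffold of the elongation complex, at 116 and 165 CPM in NT and 180.5 and 241 CPM in Low (0.59 ± 0.11, adjusted p = 0.016), and it was lost without either Low library. Reads of Kmt2a and Mllt3 (237 and 169 CPM and 27.7 and 16.6 CPM in NT, 247 and 219 CPM and 28.1 and 21.5 CPM in Low) can hold those of the fusion.

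**Figure D3:**
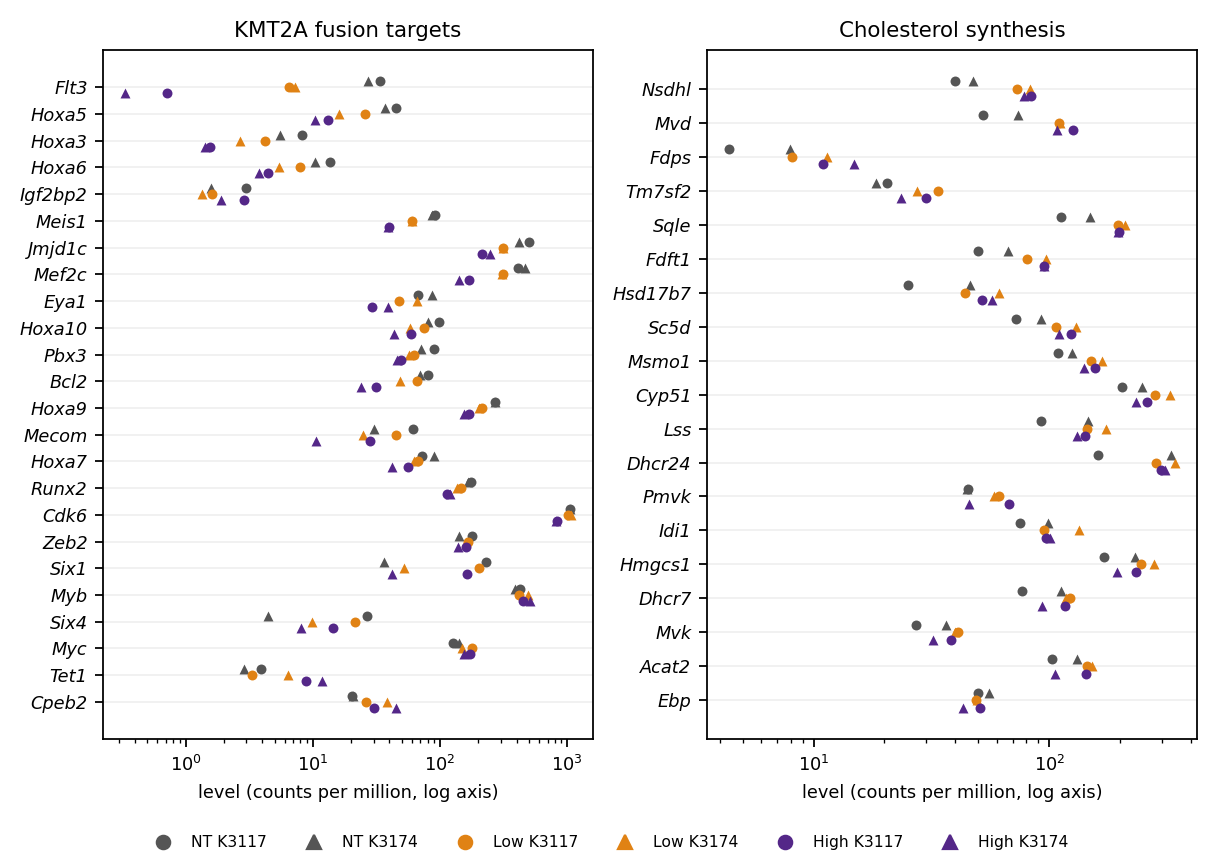
Levels in CPM (log axis) of the 24 KMT2A fusion targets and 19 of the cholesterol synthesis genes, 1 point per library, ordered by the fitted difference of Low minus NT. At Meis1 the Low libraries, at 60.5 and 60.7 CPM, lie between NT and High, and at Nsdhl the Low libraries, at 73.3 and 82.7 CPM, lie beside High.

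The imprinted Dlk1-Meg3 domain on chromosome 12 fell as well. Dlk1, a membrane protein related to Notch ligands and made by immature cells (chromosome 12, 109452823 to 109463336, plus strand), was at 106 and 236 CPM in NT and 31.9 and 32.7 CPM in Low. The Low libraries were alike and both far under NT, with a difference of -2.33 ± 0.24, or 5.01-fold lower (adjusted p = 0.0004). Rian and Meg3, noncoding RNAs of the other parental allele, were at 2.92 and 56.8 CPM and 0.421 and 21.8 CPM in NT and 1.28 and 13.3 CPM and 0.352 and 4.26 CPM in Low. In K3117 they were low to begin with, and the differences of -1.77 ± 0.25 and -1.88 ± 0.39 (adjusted p = 0.0026 and 0.024) rested on K3174 and did not pass without the NT or the Low library of that leukemia. Of the 7 genes listed, 4 were tested and 3 were lower, and 1 was lower without either of those libraries.

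Stem and progenitor genes moved both ways, with 2 higher and 3 lower of 19 tested. Hlf, a transcription factor of stem cells, fell from 42.4 and 8.93 CPM to 18.2 and 2.37 CPM (-1.49 ± 0.22, adjusted p = 0.0038), with each leukemia at its own level. Ly6a, which encodes Sca-1, was low throughout, at 2.68 and 1.58 CPM and 0.737 and 0.15 CPM (-2.39 ± 0.44, adjusted p = 0.012), and was lost without the K3174 Low library. Angpt1, an angiopoietin, fell from 121 and 70.8 CPM to 83 and 44.6 CPM (-0.60 ± 0.12, adjusted p = 0.02) and was lost without either Low library. Prom1, which encodes the surface protein CD133, rose with Kit, from 1.11 and 4.16 CPM to 6.98 and 24.8 CPM (2.59 ± 0.22, adjusted p = 0.00018). Lower were between 1 and 7 members when a library was left out.

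Other genes were named for the size of their difference or for its p. Mogat2, an acyltransferase of triglyceride synthesis, rose from 0.361 and 2.76 CPM to 2.66 and 19.1 CPM (2.78 ± 0.24, adjusted p = 0.00018). Tmc7, a member of the transmembrane channel-like family, rose from 2.16 and 2.93 CPM to 10.4 and 15.3 CPM (2.32 ± 0.18, adjusted p = 0.00018), and the unnamed 4930438A08Rik from 0.451 and 3.28 CPM to 2.53 and 23.7 CPM. Ddx4, a germline RNA helicase, had the largest fall among named genes, 9.8-fold, from 14 and 5.95 CPM to 1.76 and 0.42 CPM (-3.29 ± 0.29, adjusted p = 0.00018). Abcb4, a phospholipid transporter, fell from 13.3 and 9.19 CPM to 3.43 and 1.35 CPM (-2.32 ± 0.25, adjusted p = 0.00056).

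Genes of filaments and membranes were among these. Myo6, an unconventional myosin, went from 6.58 and 5.78 CPM to 1.83 and 1.26 CPM (-2.01 ± 0.26, adjusted p = 0.0015). Nes, the filament protein nestin, went from 3.49 and 6.65 CPM to 0.961 and 1.05 CPM (-2.27 ± 0.32, adjusted p = 0.0024) and Pacsin1, an adaptor of endocytosis, from 12 and 3.15 CPM to 2.27 and 0.84 CPM (-2.19 ± 0.28, adjusted p = 0.0015). Tpm2, a tropomyosin, and Basp1, a membrane-bound protein, had -1.99 ± 0.37 and -1.91 ± 0.31 (adjusted p = 0.012 and 0.0059). Nes, Tpm2 and Basp1 were lost without the K3174 Low library, and Tpm2 also without the K3117 NT or Low library.

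Some receptors for inflammatory chemokines fell. Of 12 chemoattractant receptors, 3 were lower and 1 higher, and the same number were lower without any 1 library. Ccr2, the receptor that draws monocytes out of marrow, was at 239 and 88.7 CPM in NT and 69.2 and 36 CPM in Low. The NT libraries differed from each other but both were above both Low libraries, and the difference was -1.56 ± 0.16 (adjusted p = 0.0004). Ccr1 went from 30.2 and 17.1 CPM to 6.21 and 6.75 CPM (-1.84 ± 0.23, adjusted p = 0.0015). C5ar1, a complement receptor, was higher, at 1.05 and 1.53 CPM and 2.11 and 3.51 CPM (1.11 ± 0.25, adjusted p = 0.035), and was lost without either Low library. Cx3cr1, the fractalkine receptor of monocytes, was at 51.9 and 20.2 CPM and 44.1 and 15.7 CPM and did not pass (adjusted p = 0.46).

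More monocyte and macrophage genes were lower than higher, while their summed level was mixed. Of 23 listed, 21 were tested, 3 were lower and 1 higher, with a median of -0.46, and C1qa had no count in NT or Low. At an unadjusted p under 0.05, 10 of the 21 were lower and 1 higher, beside 2097 of all 15812 genes in either direction. Their summed level was 2022 and 1358 CPM in NT and 1858 and 1458 CPM in Low, so it fell in K3117 and rose in K3174. Fn1, fibronectin, fell from 8.57 and 11.3 CPM to 1.86 and 1.95 CPM (-2.38 ± 0.32, adjusted p = 0.002) and the protease gene Ctss from 42.6 and 20.9 CPM to 28.3 and 14.7 CPM (-0.55 ± 0.13, adjusted p = 0.048). Ly6c2, a surface marker of inflammatory monocytes and of granulocyte progenitors, rose from 453 and 557 CPM to 676 and 814 CPM (0.56 ± 0.12, adjusted p = 0.029). Lyz2, lysozyme, was at 596 and 127 CPM and 471 and 194 CPM and Csf1r is given above, and neither passed. Ctss and Ly6c2 were lost without either Low library, 7 members were lower without the K3117 NT library, 7 without the K3174 NT library, 7 and 8 without the K3117 and K3174 High libraries, 9 with no filter on low counts and 6 with DESeq2.

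Some of these genes stood at a low in Low and not in High. By the naming rule, which uses the difference of High minus NT, these were Gpnmb, Clec4n, Ctss and Xdh. Gpnmb, a glycoprotein of phagocytes, was at 98.7 and 19.4 CPM in NT, 66.5 and 10.7 CPM in Low and 218 and 31.8 CPM in High. Within each leukemia, Low was under NT and High above it. Low minus NT was -0.71 ± 0.14 (adjusted p = 0.017), High minus NT 0.94 (adjusted p = 0.00053) and High minus Low 1.65 (adjusted p = 8.3e-05). Clec4n, the receptor dectin-2, followed the same order in both leukemias, at 21.5 and 13.6, then 12.6 and 6, then 42.7 and 21.4 CPM. Xdh, xanthine dehydrogenase, was at 11.8 and 11.2 CPM in NT, 6.21 and 6.09 CPM in Low and 12.9 and 14.3 CPM in High, and Ctss was at 61.5 and 30.3 CPM in High.

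Spp1, osteopontin, was named for its p and was at 175 and 53 CPM in NT, 57.1 and 19.1 CPM in Low and 149.7 and 32.2 CPM in High. In both leukemias High lay between Low and NT. Low minus NT was -1.54 ± 0.16 (adjusted p = 0.00038) and High minus Low 1.09 (adjusted p = 0.0016). Over all genes, 4.12% were higher and 1.35% lower in High than in Low. The contrasts with High use the same Low or NT libraries, and a gene chosen for a low value in Low will tend to be higher in High, so these differences describe the genes and test nothing further. Gpnmb, Ctss and Xdh were lost for Low minus NT without either Low library, and Clec4n without the K3174 Low library.

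**Figure D4:**
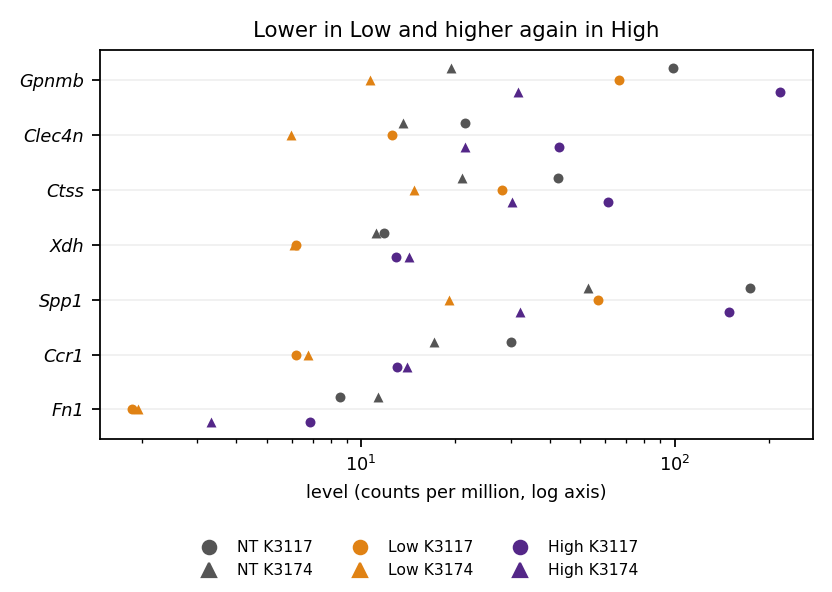
Levels in CPM (log axis) of 7 genes that were lower in Low than in NT, 1 point per library. For Gpnmb, Clec4n, Ctss and Xdh the High libraries lie above the NT libraries of their leukemia, while for Spp1, Ccr1 and Fn1 they lie between Low and NT.

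For several of the granule genes and fusion targets, High lay beyond Low. Ngp was at 404 and 1609.5 CPM in High, Cebpe at 152 and 235 CPM and Flt3 at 0.711 and 0.337 CPM. High minus NT was 7.49, 3.30 and -5.89 for these genes. The list medians of High minus NT were 4.20 for secondary and tertiary granule genes, with 16 of 19 higher, and -0.75 for fusion targets, with 15 of 24 lower. Over all genes, 10.0% were higher and 7.32% lower in High than in NT. Mpo and Elane were in High at 913 and 2118 CPM and 953 and 1185 CPM, with High minus Low of 0.45 and 0.64 (adjusted p = 0.77 and 0.27). Kit was at 183 and 208 CPM in High, with High minus Low of -0.05 (adjusted p = 0.92).

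Some cholesterol synthesis genes rose, by less than 2-fold. All 20 were tested, 5 were higher and none was lower, with a median of 0.43 (0.62 in K3117 and 0.40 in K3174). NT and Low did not overlap at 16 of the 20, beside 31.6% of all genes tested. Nsdhl, a demethylating enzyme late in the path (chromosome X, 72918557 to 72958514, plus strand), was at 39.8 and 47.5 CPM in NT and 73.3 and 82.7 CPM in Low. The difference was 0.84 ± 0.13 (adjusted p = 0.0047). Mvd, the mevalonate diphosphate decarboxylase (chromosome 8, 122433601 to 122443422, minus strand), went from 52.2 and 73.7 CPM to 109 and 111 CPM (0.82 ± 0.16, adjusted p = 0.016) and Sqle, squalene epoxidase, from 113 and 149 CPM to 195 and 210.5 CPM (0.64 ± 0.13, adjusted p = 0.019). Fdft1, squalene synthase, and Tm7sf2, a sterol reductase, also passed, with 0.61 ± 0.13 and 0.66 ± 0.14 (adjusted p = 0.029 and 0.029).

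In High, 3 of these genes stood near their Low levels: Nsdhl was at 84.1 and 78.3 CPM, Mvd at 126 and 108 CPM and Sqle at 198 and 195 CPM. The list median of High minus NT was 0.33. The summed level of the list was 1901 and 2494 CPM in NT, 2756 and 3082 CPM in Low and 2763 and 2499 CPM in High. In High the sum was thus near that of Low in K3117 and near that of NT in K3174. Without the K3117 Low library 1 of the 20 was higher, without the K3174 Low library none, and without the K3174 NT library 17, so the count turned on single libraries, and DESeq2 gave 8. Nsdhl was lost without the K3174 Low library and the other 4 without either. The 17 genes of sterol uptake, export and control had no call in either direction (edgeR, 5 with an unadjusted p under 0.05, none called by DESeq2) and a median of 0.09. Abca1, an exporter of cholesterol, was at 8.99 and 2.93 CPM and 5.51 and 1.59 CPM (adjusted p = 0.086). The 12 fatty acid synthesis genes also had no call, with 3 at an unadjusted p under 0.05 and none called by DESeq2.

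The promoters of Nsdhl and Mvd are shown as those of the 2 sterol genes with the largest differences that passed, with the letters CCAAT on either strand in capitals. This box, bound by NF-Y, is known beside sterol-responsive elements. Both are from RefSeq on GRCm38.p6, 5′ to 3′ on the strand of the gene and cut to bases outside GENCODE exons, at chrX:72918412-72918520 on the plus strand and chr8:122443423-122443672 on the minus strand.
Nsdhl: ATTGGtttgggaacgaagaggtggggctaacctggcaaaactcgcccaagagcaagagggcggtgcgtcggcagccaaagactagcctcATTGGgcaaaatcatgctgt
Mvd: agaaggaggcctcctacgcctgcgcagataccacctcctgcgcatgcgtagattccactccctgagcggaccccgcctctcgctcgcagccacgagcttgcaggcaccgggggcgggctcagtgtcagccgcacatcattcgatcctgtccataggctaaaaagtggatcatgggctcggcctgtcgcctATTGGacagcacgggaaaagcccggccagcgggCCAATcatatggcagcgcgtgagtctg
In the 250 bases before RefSeq starts, 14 of the 15 cholesterol synthesis genes with a window held CCAAT, as did 8 of 12 sterol uptake, export and control genes, which had no call, and 37.5% of all 27025 genes. The sterol element spelling TCACNCCAC was in 1 of the 15, Hmgcs1, and in 1.2% of all genes. These spellings are among the 13 searched.

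A few inflammatory genes rose. Of 20 tested genes of the NF-kB response, 4 were higher and none lower, with a median of -0.05. The chemokine Cxcl2 was at 4.99 and 2.5 CPM in NT and 10.4 and 5.13 CPM in Low (1.05 ± 0.19, adjusted p = 0.011), and Tnf, the tumor necrosis factor, at 11.3 and 10.3 CPM and 23.4 and 16.3 CPM (0.86 ± 0.16, adjusted p = 0.015). Tnfaip3 and Nfkbiz, feedback regulators of NF-kB, had 0.64 ± 0.14 and 0.62 ± 0.14 (adjusted p = 0.029 and 0.041). All 4 lost their call without either Low library. Nfkbia, the inhibitor that NF-kB induces, was at 87.6 and 89.8 CPM and 109.9 and 94.1 CPM (adjusted p = 0.61), and Il1b at 10.9 and 3.15 CPM and 8.01 and 3.06 CPM (adjusted p = 0.77). Among 19 immediate early genes, Ier3 was higher (0.68 ± 0.14, adjusted p = 0.02). Of 22 p53 targets tested, Perp and Fas were higher (0.91 ± 0.17 and 0.89 ± 0.20, adjusted p = 0.013 and 0.032), and Cdkn1a, the cell cycle inhibitor p21, was at 119.9 and 65.7 CPM and 103 and 47 CPM (adjusted p = 0.29). Ier3, Perp and Fas were lost without either Low library.

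Among interferon response genes 1 passed, beside 1.29% of all genes tested that were lower. Of 23 tested, Oasl2 was lower (2.04 and 1.05 CPM in NT, 0.737 and 0.15 CPM in Low, adjusted p = 0.045). The list median was -0.34 and 18 had the same sign in both leukemias. At an unadjusted p under 0.05, 9 of the 23 were lower and 1 higher, beside 2097 of all 15812 genes in either direction. DESeq2 called none of the 23. Oasl2 was lost with DESeq2, without the K3174 NT library and without either Low library. Irf7 and Isg15, central to the response, were at 2.32 and 1.14 CPM and 1.65 and 0.832 CPM in NT and 1.83 and 0.84 CPM and 1.28 and 0.87 CPM in Low, so these central genes were weakly expressed.

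Few growth genes passed. None of 27 S phase, 25 G2 and M phase, 26 MYC and ribosome biogenesis, 35 ribosomal protein and 13 mitochondrially encoded genes passed in either direction, and the list medians were -0.04, -0.07, -0.04, -0.12 and 0.19. At an unadjusted p under 0.05 there was 1 gene among these lists, of MYC and ribosome biogenesis, and DESeq2 called none. When single libraries were left out, up to 8 mitochondrially encoded genes were higher. Single S phase genes lay between -0.18 and 0.18, and ribosomal protein genes between -0.22 and -0.01. NT and Low did not overlap at 18 of the 35 ribosomal protein genes, beside 31.6% of all genes tested, although none passed. Top2a, a topoisomerase of dividing cells, was at 1096 and 1035 CPM in NT and 913 and 953 CPM in Low (-0.19 ± 0.12, adjusted p = 0.62). Myc was at 126 and 139.9 CPM and 178 and 148 CPM (0.29 ± 0.13, adjusted p = 0.36). Ccnd1, cyclin D1, was the exception among 13 D cyclins and CDK inhibitors, falling from 11.2 and 2.41 CPM to 4.36 and 0.959 CPM (-1.34 ± 0.25, adjusted p = 0.012), and it was lost without either Low library. Ccnd2 and Ccnd3 were at 119 and 136 CPM and 175 and 185 CPM in NT and 122 and 134 CPM and 168 and 143 CPM in Low.

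Stress and survival genes gave little. No gene passed among 16 of the BCL2 family, 13 heat shock genes and 27 genes of glycolysis and hypoxia, with medians of -0.08, -0.07 and -0.11. At an unadjusted p under 0.05 there were 2, 0 and 3 of them, and DESeq2 called none. Bcl2 was at 80.2 and 69.3 CPM in NT and 66 and 48.2 CPM in Low (-0.40 ± 0.13, adjusted p = 0.13). Of 25 genes of the unfolded protein and integrated stress responses, Vldlr was lower (-1.47 ± 0.28, adjusted p = 0.015), and it was lost without the K3174 Low library.

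**Figure D5:**
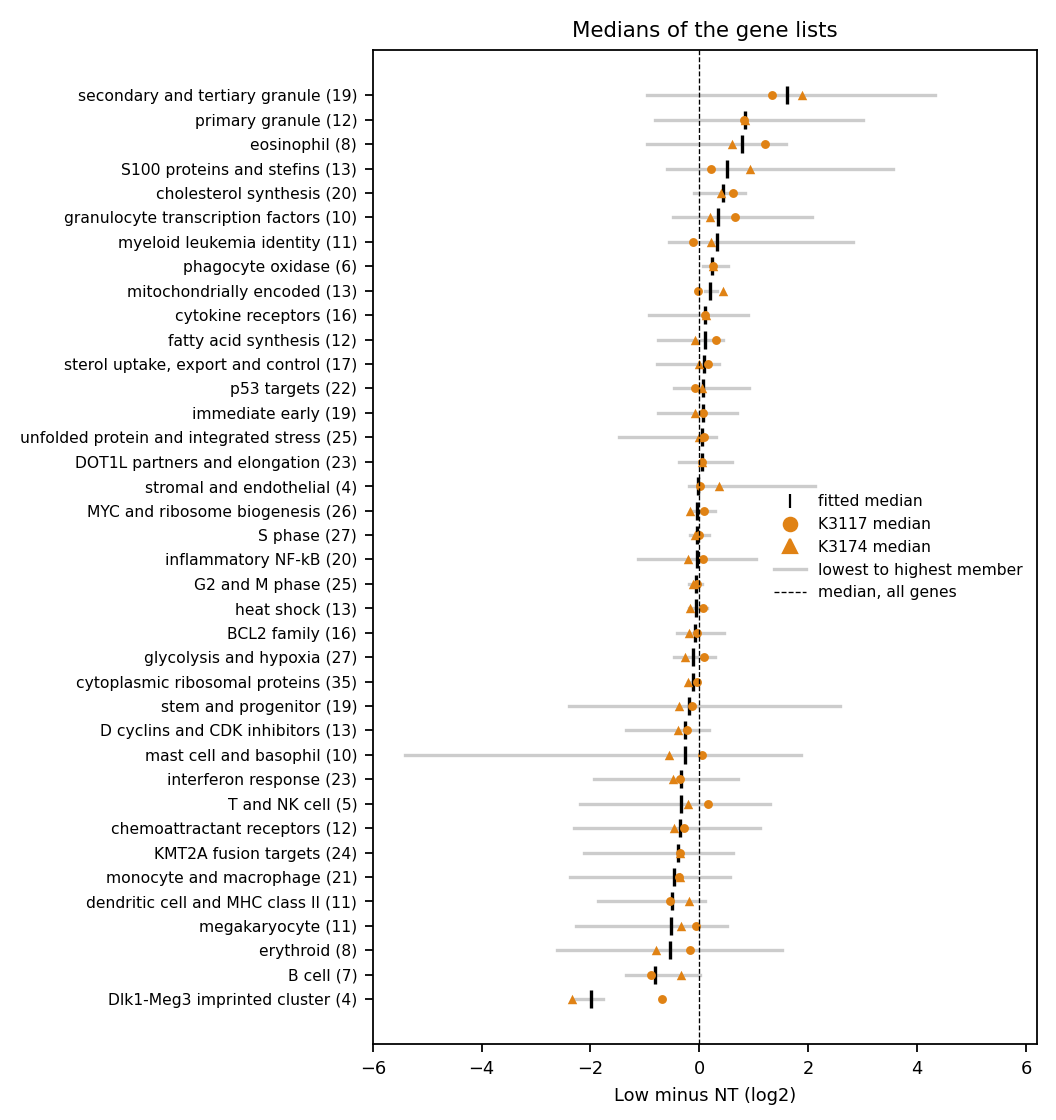
Low minus NT (log2) for the 38 gene lists, with the number of tested members in brackets. Black ticks are medians of the fitted differences, circles and triangles are medians within K3117 and K3174, gray lines span the lowest to the highest fitted member, and the dashed line is the median of all genes, -0.01. The granule lists lie at the top, at 1.62 and 0.83, and the Dlk1-Meg3 domain at the bottom, at -2.00.

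Some markers of other cells passed, beside 2.05% of all genes tested that were higher and 1.29% that were lower. Of 11 dendritic cell and MHC class II genes tested, of 16, Itgax and Tcf4 were lower (-1.85 ± 0.25 and -0.50 ± 0.11, adjusted p = 0.0018 and 0.033). Their summed level was 429.8 and 272 CPM in NT and 295 and 197 CPM in Low, mostly Tcf4, with Cd209a at 0. Of 7 B cell genes tested, of 13, Ighm was lower, at 239 and 150.4 CPM and 129 and 88.7 CPM (-0.83 ± 0.16, adjusted p = 0.017), while Ms4a1 and Pax5 had no count in NT or Low. The B cell sum was 255 and 171 CPM in NT and 142 and 104 CPM in Low, nearly all of it Ighm. Among T and NK cell genes, 5 of 14 were tested, Il7r was lower (-2.19 ± 0.35, adjusted p = 0.0051) and Nkg7 higher (1.29 ± 0.22, adjusted p = 0.0081).

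Erythroid genes had 1 higher and 1 lower of 8 tested. The hemoglobin gene Hbb-bt fell from 15.8 and 4.33 CPM to 3.04 and 0.42 CPM (-2.62 ± 0.42, adjusted p = 0.0054), and its near-identical copies can share its reads. The copy Hbb-bs was 5.93-fold lower in K3117 and 1.40-fold higher in K3174, and it did not pass. Car2, a carbonic anhydrase, rose from 6.67 and 7.49 CPM to 16 and 25.2 CPM (1.53 ± 0.21, adjusted p = 0.0022), while Slc4a1 had no count in NT and Low. No megakaryocyte gene of 11 passed, with 3 at an unadjusted p under 0.05 and none called by DESeq2. Vcam1, an adhesion molecule listed with stromal and endothelial markers, rose from 1.11 and 2.89 CPM to 4.45 and 13.3 CPM (2.12 ± 0.35, adjusted p = 0.0071), with Col1a2, Col3a1 and Cxcl12 at 0. Tcf4 was lost without either Low library, Ighm and Vcam1 without the K3174 Low library and Il7r without the K3117 Low library.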

How the data were processed

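RNA-seq was performed on 6 libraries, 1 per label (NT, DOT1L Low, DOT1L High) in each of the leukemias K3117 and K3174. The authors deposited whole-number counts per gene, which were analysed unchanged. The submitters' processing notes list kallisto, STAR, STAR-Fusion, DESeq2 and mm10, with neither version nor purpose. Which tool and annotation made the counts, and whether strand was used, could not be learned from them, so reads of overlapping and antisense genes cannot be separated and values of near-identical genes are uncertain.

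Symbols matched 99.5% of IDs (259 did not match), and positions are from GENCODE on GRCm38, counted from 1. R 4.3.3 and edgeR 4.0.16 were used. Expression filtering left 15812 genes. A quasi-likelihood fit by label and leukemia took in all 6 libraries, with TMM factors from 0.973 to 1.04 (2 residual and 9.38 prior degrees of freedom, biological coefficient of variation 12%). CPM use TMM sizes, and differences within a leukemia use log2 CPM with a prior count of 2. Genes passed at a Benjamini-Hochberg value of 0.05 over the whole table. The K number was a block because it names 1 library of each label, with correlations of deviations of 0.57, 0.44 and 0.64 between labels. The fit was tested on simulated counts.

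Members, the 38 lists (669 entries, 646 genes, 645 in the table, 585 tested) and the naming rule were chosen with earlier results of these data known. Named were Dot1l, Hoxa9, Meis1, Pbx3, Mef2c, the 12 higher and 12 lower genes of largest fold and the 6 and 6 of smallest p (past the threshold, same sign in both leukemias, at least 5 CPM in the higher group), up to 4 members per list by p, and the 4 and 4 called genes whose High minus NT was nearest or opposite to 0. Further list members are named as examples, and some genes under the rule are not reported here. Alternatives were no block, only NT and Low libraries, other scalings, other filters, DESeq2 1.42.0 and leaving out each library.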

Additional observations from a re-analysis of the deposited data

Results flagged for a closer look

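Some results moved in opposite directions in K3117 and K3174. With 1 library per label and leukemia, none of these differences was tested. Dot1l was higher in Low by 0.52 in K3117 and by -0.06 in K3174, a difference of -0.58 (K3174 minus K3117, log2, here and below). The other flags are medians over gene lists that had opposite signs and differed by at least 0.2. Mitochondrially encoded genes had -0.03 in K3117 and 0.44 in K3174, a difference of 0.47. None of these genes passed. Myeloid leukemia identity genes had -0.12 and 0.22, a difference of 0.34.

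The remaining lists were higher in K3117 and lower in K3174. Mast cell and basophil genes had 0.04 and -0.56, a difference of -0.60. Fatty acid synthesis genes had 0.31 and -0.08, a difference of -0.39, and T and NK cell genes 0.16 and -0.22, a difference of -0.37. Glycolysis and hypoxia genes differed by -0.36, NF-kB genes by -0.29, MYC and ribosome biogenesis genes by -0.25 and heat shock genes by -0.25. Of these lists, NF-kB genes had 4 members that passed, mast cell and basophil genes 2, and T and NK cell genes 2.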

How the results depend on the processing

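Without the replicate block, 0 genes passed (0 higher, 0 lower, 0 list members), and all 85 named genes that had passed were lost. The NT and Low libraries alone gave 881 genes (479 lower), no filter on low counts 1071 (551 higher, 520 lower, 124 list members), and a minimum of 5 CPM 94 lower genes. Leaving out each library gave 144 to 1483 genes, 116 to 813 higher and 28 to 670 lower, and 38 to 150 list members, against 82. Dot1l then lay between -0.016 and 0.49, the latter (adjusted p = 0.013) on omitting NT of K3174. Several of these fits estimated a spread shared by nearly all genes, which lowers p-values. The prior degrees of freedom were 75.2 for the 4 libraries, and had no finite value without either High library or with no filter on low counts. Counts with other scalings were 505 to 555 and with DESeq2 588. Of the 85 named genes, 32 were lost without the K3117 and 45 without the K3174 Low library, 5 with DESeq2, and none reversed in any alternative. The precision of all counts is limited by 2 libraries per group.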

Other observations

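The genes given here, all but Ltb4r1 outside the gene lists, were singled out after their values were seen, so they carry no count or test as a group. Several belonged to the handling of eicosanoids and bacterial lipids in phagocytes. Ltb4r1, the leukotriene B4 receptor, a member of the secondary and tertiary granule list, was at 1.98 and 9.06 CPM in NT and 11.9 and 50.8 CPM in Low (2.50 ± 0.23, adjusted p = 0.00021). Lta4h, the enzyme that makes its ligand, went from 245 and 252 CPM to 331 and 618 CPM (0.86 ± 0.18, adjusted p = 0.022), by 0.43 in K3117 and 1.30 in K3174 within the leukemias. Ptgs1, a cyclooxygenase, went from 22.5 and 44.7 CPM to 52.7 and 97.9 CPM (1.18 ± 0.15, adjusted p = 0.0015). Lbp, which binds lipopolysaccharide, rose from 24 and 28.8 CPM to 54.3 and 84.9 CPM and Tlr4, its receptor, from 18.2 and 10.3 CPM to 27.1 and 27.8 CPM (adjusted p = 0.00029 and 0.015). The complement gene C3 rose too, at 232 and 303 CPM in NT and 607 and 940.4 CPM in Low (1.52 ± 0.13, adjusted p = 0.00018). Genes of redox defence rose in the same libraries: Gsr, glutathione reductase, from 242 and 337 CPM to 471 and 744 CPM and Prdx5, a peroxiredoxin, from 131 and 142 CPM to 241 and 267 CPM (adjusted p = 0.00076 and 0.0015). Iron and heme genes moved too, with the iron exporter Slc40a1 at 1.71 and 1.71 CPM and 8.04 and 15.8 CPM and Alas1, the first enzyme of heme synthesis, at 165 and 192 CPM and 312 and 362 CPM (adjusted p = 0.00018 and 0.0015).

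Signalling and adhesion genes also passed. Igf1r, a growth factor receptor, rose from 31.8 and 85.5 CPM to 106 and 197 CPM (1.45 ± 0.18, adjusted p = 0.0014), and Syne1, a nuclear envelope protein, from 42.9 and 60.8 CPM to 116 and 334 CPM (1.94 ± 0.20, adjusted p = 0.00038). Gfi1b, the relative of Gfi1 that acts in erythroid and megakaryocytic cells, fell while Gfi1 rose, from 26.2 and 21.4 CPM to 15.3 and 3.96 CPM (-1.51 ± 0.31, adjusted p = 0.021). The Wnt receptor Fzd8 fell from 6.77 and 12 CPM to 2.43 and 2.52 CPM and Fzd1 from 20.6 and 4.07 CPM to 9.93 and 0.81 CPM (adjusted p = 0.0021 and 0.021). Itga4, a chain of integrins that bind VCAM1, fell from 526 and 478 CPM to 324 and 308 CPM (-0.67 ± 0.11, adjusted p = 0.008). Adgrg1, an adhesion receptor of stem cells, fell from 304 and 243 CPM to 228 and 86.4 CPM, and Tpm4, a tropomyosin, from 124 and 75.2 CPM to 57.7 and 37.4 CPM (adjusted p = 0.029 and 0.00087). Lmna, which encodes lamin A, was at 8.84 and 16.4 CPM in NT, 5.25 and 4.83 CPM in Low and 9.11 and 12.9 CPM in High (adjusted p = 0.014 for Low minus NT). Without the K3174 Low library, the calls of Lta4h, Tlr4, Gfi1b, Fzd8, Fzd1, Itga4, Adgrg1 and Lmna were lost, that of Itga4 also without the K3117 Low library, and those of Gfi1b and Adgrg1 also with DESeq2.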
